A study of Danio rerio with 6 samples.

Results

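The cytochrome P450 and eicosanoid enzyme genes were followed in whole zebrafish embryos exposed to 11,12-EET, an epoxide of arachidonic acid. The members were chosen by gene symbol in the array's annotation: all probe sets with a single symbol that starts with cyp and a digit, or with ephx, pla2g, alox, ptgs, ptges, ptgds, ptger, hpgd, lta4h or faah, with the sterol synthesis gene cyp51 left out. This gave 84 probe sets for 65 genes, of 15502 probe sets tested. Of these, 65 probe sets stood for 47 P450 genes and 19 for 18 other genes. No probe set carried a ptger, hpgd or lta4h symbol, so the receptors for prostaglandin E, the main enzyme of prostaglandin breakdown and leukotriene A4 hydrolase were not analysed here, nor was ephx2, the soluble epoxide hydrolase. The arrays compared pools of wild-type AB embryos, dechorionated and aged 36 h after fertilisation, that had been kept from 24 h onwards either in 5 µM 11,12-EET or in DMSO, the solvent. Each treatment had 3 arrays, described as biological replicates, and 25 embryos were used per treatment group. Whether the pools of a group came from separate clutches is not stated, so the p-values measure the spread between these pools. In RNA from whole embryos, fewer cells of a type and less RNA per cell cannot be told apart.

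As background, phospholipases A2 free arachidonic acid from membrane lipids. Cyclooxygenases turn it into prostaglandins, lipoxygenases into leukotrienes and related acids, and P450 enzymes of family 2 into the epoxides called EETs, which epoxide hydrolases convert to diols. P450 enzymes are haem proteins, and other families of them oxidise foreign compounds, retinoic acid, cholesterol, bile acids, vitamin D and steroid hormones. In mammals EETs are known to act on blood vessels and in inflammation. The comparison asked which transcripts differed after 12 h in EET, and for these genes whether the enzymes that make, use or remove EETs and their sister lipids did.

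Most members gave weak signals. A level here is the authors' deposited log2 value of a probe set, and a difference is the mean of the 3 EET arrays minus the mean of the 3 DMSO arrays on that scale. Of the 84 members 19 (22.6%) lay at or above the median level of all probe sets, 4.81, and 41 (48.8%) lay in the dimmest 25%. As a gauge of background, chosen after the values were seen, 3 control probe sets named for fluorescent reporter vectors, which wild-type embryos should not carry, read 1.01 to 3.90 over the 6 arrays. The upper end came from pDsRed1-1, at 2.46 to 3.90, while pAsRed2 read 1.46 to 1.91 and pd2EGFP 1.01 to 2.61. Only 25 members (29.8%) exceeded 3.90 in every array, against 57.7% of all probe sets. A probe set's brightness depends on its probes as well as on the transcript, so brightness does not rank the genes by RNA. The median SD between replicates was 0.16 among the 19 brighter members and 0.68 among the other 65. The replicate 3 arrays, DMSO and EET alike, were set apart from the remaining 4 along the main axis of variation (44.0% of the variance among brighter probe sets). For the named probe sets, differences without these arrays that changed sign or moved by over 1.5 times are given in the closing section. Some are also given beside the result. The difference between the 3' and 5' probe sets of the actin control, a sign of RNA quality, ranged from 1.74 to 2.01 over the DMSO arrays and from 2.14 to 2.30 over the EET arrays, without overlap. Its part in the differences below was not tested. For GAPDH the ranges overlapped, at 0.88 to 1.02 and 0.94 to 1.27.

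**Figure D1:**
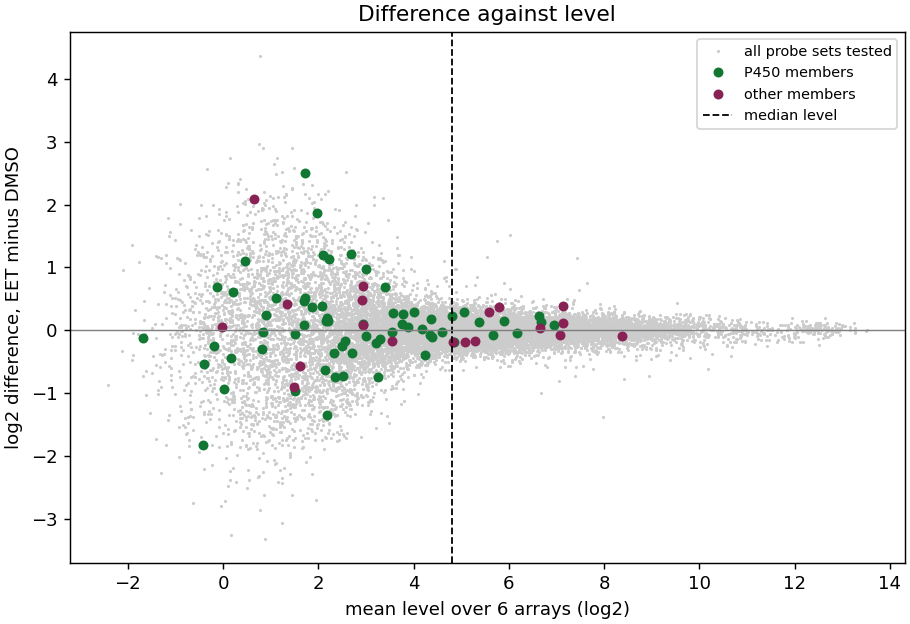
Each point is a probe set, with its mean level over 6 arrays (log2) on the x axis and its log2 difference, EET minus DMSO, on the y axis. Grey points are all 15502 probe sets tested, coloured points the 84 members, and the dashed line marks the median level of 4.81. The members with differences beyond 1 in either direction all lie left of that line.

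No member passed the test. Over all 15502 probe sets limma called 0 (0%) at a Benjamini-Hochberg adjusted p under 0.05, and 0 of the 84 members, the smallest adjusted p among them being 0.632. Fitted on the 7751 brighter probe sets alone, limma called 6 (0.0774%), and 0 of the 19 members there, with a smallest adjusted p of 0.739. At an unadjusted p under 0.05, 7 members (8.33%) were higher in EET, against 2.66% of all probe sets, and 0 were lower, against 2.61%. All 7 lay below the median level, and without the replicate 3 arrays their differences ran from 0.31 for cyp2aa9 to 1.78 for cyp2k22. Among the 19 brighter members 0 had an unadjusted p under 0.05 in the brighter fit, against 6.66% of brighter probe sets. This count depended on the model. With the replicate number as a block, 5 of the 19 (26.3%) had an unadjusted p under 0.05 and were higher in EET, against 4.19% of brighter probe sets, and 0 were lower, against 4.90%. These were ptgdsb.1 (limma's unadjusted p = 0.00496), ptgs2a (0.021), ptgs1 (0.028), cyp1a (0.038) and cyp20a1 (0.048). None was called, the smallest adjusted p being 0.343. With the block over all probe sets, 9 of the 84 members had an unadjusted p under 0.05, against 5.37% of all probe sets. Of these 9 members 6 were higher in EET and the rest lower. The EET and DMSO arrays did not overlap in 11 members. Of these, 10 (11.9%) were higher in EET, against 5.81% of all probe sets, and 1 (1.19%) was lower, against 5.91%. Of the 19 brighter members 3 (15.8%) did not overlap, against 13.0% of brighter probe sets. The median difference was 0.06 over the 84 members, of which 46 were higher and 38 lower, and -0.002 over all probe sets. Without DMSO replicate 1 the members' median was -0.018, on the other side of 0.

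For the brighter members the intervals bound how far the probe set signals differed, which need not equal the difference in transcript. For all 19 the 95% interval of the difference lay within 2-fold in either direction, from -0.475 (1.39-fold lower) for ptgesl to 0.84 (1.79-fold higher) for ptgdsb.1. Their differences ran from -0.195 to 0.38. Of the 65 dimmer members 18 had an interval within 2-fold, and the median half-width of the interval was 1.22 among them, against 0.28 among the brighter members.

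**Figure D2:**
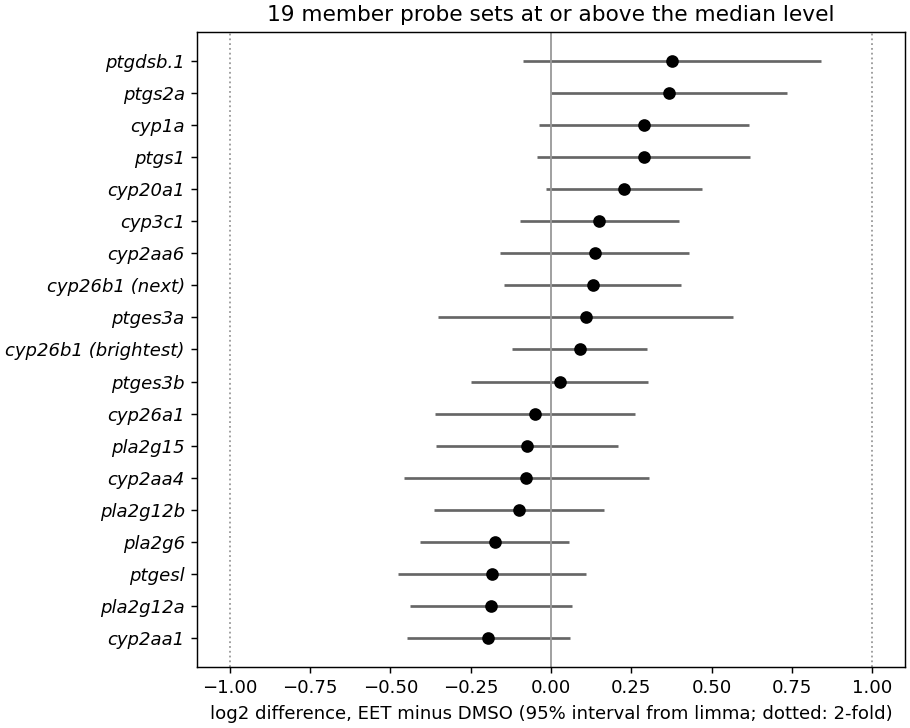
Points are log2 differences, EET minus DMSO, of the 19 members at or above the median level, ordered by size, and lines are 95% intervals from limma fitted on the brighter probe sets. The dotted lines mark 2-fold. All 19 intervals include 0 and none reaches 2-fold.

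The phospholipases A2, which start the pathway, were lower by group mean in 5 of 6 genes, with a median of -0.14, and 0 passed. The calcium-independent phospholipase gene pla2g6 read 5.34, 5.30 and 5.51 in DMSO and 5.29, 5.14 and 5.20 in EET. Its highest EET array lay just below its lowest DMSO array, which held for no other member, and the difference was -0.175 ± 0.102 (SE; limma's adjusted p in the brighter fit was 0.808). Without the replicate 3 arrays it was -0.109. The secreted phospholipase gene pla2g12a differed by -0.19 ± 0.11, the lysosomal pla2g15 by -0.075 ± 0.124, and pla2g12b, known in mice and zebrafish for its part in lipoprotein secretion, by -0.0995 ± 0.116. The cytosolic pla2g4aa, whose mammalian counterpart frees arachidonic acid on calcium signals, ran from -1.28 to 1.89 in DMSO and from -1.03 to 1.61 in EET. Its levels are not known to be above background, and its difference of 0.05 ± 1.095 says little. The digestive enzyme gene pla2g1b differed by -0.907 ± 0.477 at a similarly dim level.

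The prostaglandin genes had 6 of 7 probe sets above the median level, with SEs in the brighter fit from 0.12 (ptges3b) to 0.204 (ptgdsb.1). The inducible cyclooxygenase gene ptgs2a read 5.38, 5.46 and 5.997 in DMSO and 6.03, 5.88 and 6.03 in EET. DMSO replicate 3 lay among the EET arrays and the other DMSO arrays below them. The difference was 0.37 ± 0.16 (unadjusted p = 0.0504 and adjusted p = 0.739 with limma among the brighter probe sets), with an interval up to 0.73. In the replicate 3 pair it was 0.036, against 0.53 in the other 4 arrays. The constitutive cyclooxygenase gene ptgs1 read 5.14, 5.55 and 5.607 in DMSO and 5.611, 5.66 and 5.90 in EET. The groups met without overlapping, and the difference of 0.29 ± 0.15 did not pass (adjusted p = 0.767). The prostaglandin D synthase gene ptgdsb.1 read 7.25, 6.96 and 6.63 in DMSO and 7.60, 7.44 and 6.93 in EET. The groups overlapped, and they differed by 0.38 ± 0.20 (adjusted p = 0.796). With the replicate number as a block the SE of this difference was 0.101 (limma's unadjusted p = 0.00496, adjusted p = 0.343). The neighbouring ptgdsb.2 was dimmer and differed by -0.176 ± 0.234. A probe set annotated to both genes, and so outside the rule, was brighter than either. It differed by 0.23 (limma's unadjusted p = 0.239 over all probe sets). Of the prostaglandin E synthase genes, ptges3a, which also encodes the p23 co-chaperone, differed by 0.108 ± 0.202. Its paralogue ptges3b differed by 0.03 ± 0.12, and ptgesl by -0.183 ± 0.128. Their intervals in the brighter fit ran from -0.35 to 0.57, from -0.25 to 0.30 and from -0.475 to 0.109, in that order. The members held no probe set of ptges or ptgs2b, so these genes were not analysed here.

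**Figure D3:**
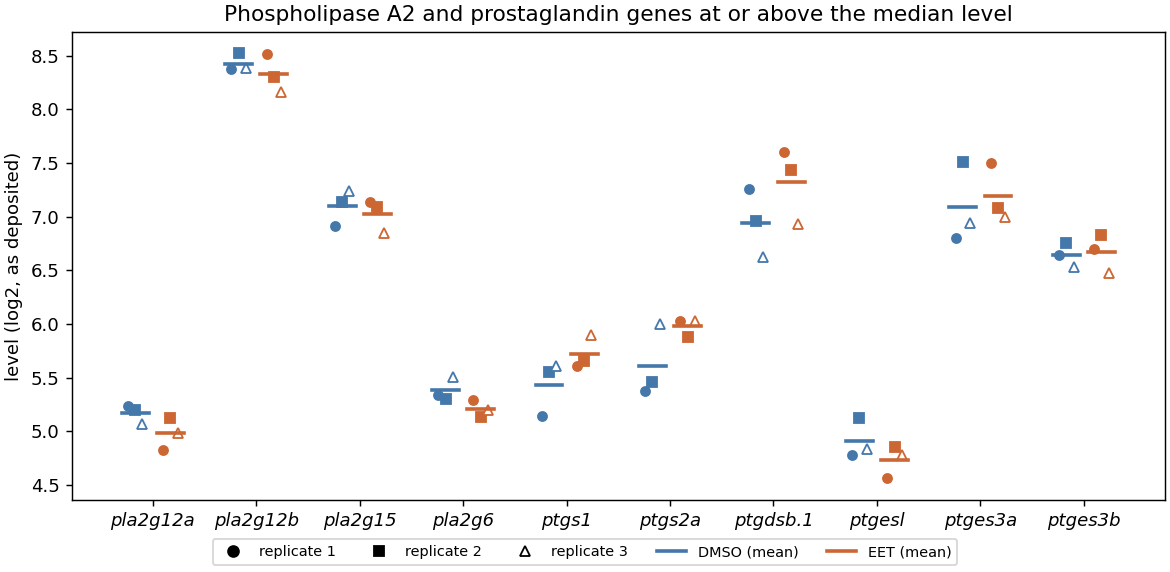
The y axis is the level of each probe set (log2), with 3 DMSO arrays in blue and 3 EET arrays in orange for the 10 phospholipase A2 and prostaglandin genes at or above the median level. Symbols mark the replicate number, open triangles being replicate 3, and bars are group means. The groups touch or overlap in 8 genes, and are apart by a narrow margin in pla2g6 and ptgs1.

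The lipoxygenase branch was near background. The 5-lipoxygenase gene alox5b.3 read -1.40, 1.88 and -1.66 in DMSO and 1.45, 1.56 and 2.07 in EET. DMSO replicate 2 lay among the EET arrays and the other DMSO arrays far below them, and the difference of 2.08 ± 0.996 did not pass (adjusted p = 0.930). The gene of its activating protein, alox5ap, differed by 0.41 ± 1.21. The probe sets of faah2b, an amide hydrolase of fatty acid amides, gave 0.48 ± 0.29 and -0.57 ± 0.80.

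Of the enzymes that remove EETs, epoxide hydrolases, 2 genes were measured. The probe set of ephx5 read 2.68, 2.78 and 2.32 in DMSO and 3.50, 3.27 and 3.12 in EET. Every EET array lay above every DMSO array, and the difference of 0.71 ± 0.18 (1.63-fold, unadjusted p = 0.00872, adjusted p = 0.872 over all probe sets) did not pass. It stayed between 0.57 and 0.80 with any 1 array left out. The levels lay within the range of the reporter controls. The microsomal epoxide hydrolase gene ephx1 read 2.80, 3.54 and 2.33 in DMSO and 3.36, 2.82 and 2.75 in EET. The groups overlapped and differed by 0.09 ± 0.35.

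P450 families 1 to 3 hold the enzymes of foreign compounds and, in mammals, the epoxygenases that make EETs. Of their 34 probe sets for 26 genes the EET mean was higher in 19 and lower in 15 (median difference 0.12), and 5 were above the median level. The aryl hydrocarbon receptor target cyp1a read 5.12, 4.88 and 4.74 in DMSO and 5.19, 5.43 and 4.998 in EET. The groups overlapped, and the difference was 0.29 ± 0.14 (adjusted p = 0.762 among the brighter probe sets). Its probe set shares a sequence cluster name with 4 probe sets annotated to the neutrophil gene mpx, so which transcript it reads is uncertain. The related cyp1d1 read 2.47, 0.65 and 3.144 in DMSO and 3.32, 3.145 and 3.43 in EET. The groups touched, and with the low DMSO replicate 2 left out the difference was 0.49 in place of 1.21. A brighter probe set of the same sequence cluster name, with no gene symbol, differed by 0.53. It was not called (limma's unadjusted p = 0.0437 over all probe sets).

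The 3 probe sets annotated to cyp1c1 did not share a direction. The brightest and the dimmest share a sequence cluster name, and whether both read the cyp1c1 transcript was not tested. The brightest differed by -0.75 ± 0.68, a value that rested on EET replicate 3: without that array it was -0.00526, and without both replicate 3 arrays -0.198. The next differed by -1.36 ± 0.59. The dimmest read -0.205, -0.024 and -0.073 in DMSO and 1.56, 0.51 and 0.95 in EET. Every EET array lay above every DMSO array in that probe set, a difference of 1.11 ± 0.28 (unadjusted p = 0.00915, adjusted p = 0.878). A group mean below 0 is not known to be above background.

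Family 2 genes gave 24 probe sets, of which 13 were higher and 11 lower. The cyp2p and cyp2ad genes, which RefSeq also lists under older cyp2j names, those of a mammalian epoxygenase family, were lower by group mean in 5 of 7 probe sets, with a median of -0.097. Their brightest, cyp2p10, read 4.38, 4.94 and 4.52 in DMSO and 4.84, 4.35 and 4.58 in EET. The arrays of both groups were interleaved, and the difference was -0.025 ± 0.205. The difference was -0.21 ± 0.41 for cyp2p6, 0.14 ± 0.25 for cyp2p8 and -0.54 ± 0.54 for cyp2p9. The probe sets of cyp2p8 and cyp2p9 share a sequence cluster name, so which gene each reads is uncertain. Of the cyp2aa genes, a subfamily with many copies side by side in zebrafish, 3 were higher and 3 lower. Among them cyp2aa9 read 3.94, 3.79 and 3.87 in DMSO and 4.05, 4.30 and 4.12 in EET. Every EET array lay above every DMSO array, by a difference of 0.29 ± 0.11 (unadjusted p = 0.0454, adjusted p = 0.930). Its neighbour cyp2aa1 differed by -0.195 ± 0.111, cyp2aa6 by 0.14 ± 0.13 and cyp2aa4 by -0.077 ± 0.168, all 3 above the median level. Copies so alike may share probes, so single cyp2aa and cyp2k values are uncertain.

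All 5 cyp2k probe sets lay in the dimmest 25%. The highest value among all member differences belonged to cyp2k22, which read -0.51, 2.42 and -0.53 in DMSO and 2.94, 2.53 and 3.42 in EET. DMSO replicate 2 lay near the EET arrays and the other DMSO arrays near 0 or below. The difference was 2.50 ± 0.87 (unadjusted p = 0.0323, adjusted p = 0.930), and 3.48 without DMSO replicate 2. For cyp2k6 it was 0.61 ± 1.21 and for cyp2k18 0.69 ± 0.65. The vitamin D 25-hydroxylase gene cyp2r1 differed by 0.104 ± 0.201 and cyp2x7, just under the median level, by 0.23 ± 0.17.

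In family 3, cyp3c1 read 5.77, 5.88 and 5.85 in DMSO and 5.86, 5.92 and 6.16 in EET, a difference of 0.15 ± 0.11 with the next probe set at 0.18 ± 0.20. The gut and liver gene cyp3a65 lay lower in EET in its 2 dim probe sets, by -0.74 ± 0.795 and -0.45 ± 0.22, with overlapping groups. The family 4 genes, whose mammalian kin hydroxylate the ends of fatty acids, were cyp4v2a at 0.52 ± 0.85 and cyp4v2b at -0.96 ± 1.16, both dim. The orphan P450 gene cyp20a1, which was well measured, read 6.48, 6.68 and 6.42 in DMSO and 6.74, 6.84 and 6.68 in EET. The lowest EET array lay just above the highest DMSO array, and the difference of 0.23 ± 0.11 (1.17-fold, adjusted p = 0.743 among the brighter probe sets) did not pass.

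The P450 genes of cholesterol, bile acid and vitamin D oxidation gave 14 probe sets for 10 genes, of which 9 had the higher and 5 the lower mean in EET (median difference 0.09), and 0 lay above the median level. The brighter probe set of cyp7a1b, whose mammalian kin CYP7A1 is the rate-limiting enzyme of bile acid synthesis, read 1.75, 0.18 and 1.198 in DMSO and 3.15, 2.26 and 3.29 in EET. Every EET array lay above every DMSO array, a difference of 1.86 ± 0.49 (unadjusted p = 0.0107, adjusted p = 0.895). The dimmer probe set of cyp7a1b differed by -0.298 ± 0.816. The brighter probe set of cyp8b1.1, a sterol 12-hydroxylase gene, read 3.32, 2.73 and 3.09 in DMSO and 3.40, 3.90 and 3.93 in EET. The groups did not overlap, and the difference was 0.69 ± 0.22 (unadjusted p = 0.0244, adjusted p = 0.930). The dimmer one, below 0 in all 6 arrays, gave -0.12 ± 0.71. The brighter one shares a sequence cluster name with a probe set annotated to a neighbouring cyp8b1 gene, so which gene it reads is uncertain. On the scale of log2(2^value + 32), which compresses low levels, the brighter probe sets of cyp7a1b and cyp8b1.1 differed by 0.22 and 0.17.

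The sterol 27-hydroxylase gene cyp27a1.1 read 1.74, 2.68 and 3.10 in DMSO and 3.79, 2.98 and 3.68 in EET, a difference of 0.98 ± 0.42 with the groups overlapping at 1 array. Its neighbour cyp27a1.4 gave 0.105 ± 0.207 and -0.168 ± 0.335. The brighter probe set of cyp24a1, the vitamin D 24-hydroxylase gene, differed by 1.13 ± 0.61 and the dimmer by 0.08 ± 0.41. For cyp27c1, which makes vitamin A2 in zebrafish, the difference was -0.079 ± 0.136. The liver markers, measured for 5 of 6 genes, had a summed level of 13.17 to 13.22 in DMSO and 13.16 to 13.27 in EET. The ranges overlapped, and 3 genes were higher and 2 lower. Most of the sum came from apoa2 (12.69 in DMSO) and tfa (11.27). The dim fabp10a, at 3.23 in DMSO and 2.28 in EET, weighed little in it and differed by -0.94 ± 0.55. Whether the liver content of the pools was equal was not tested.

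**Figure D4:**
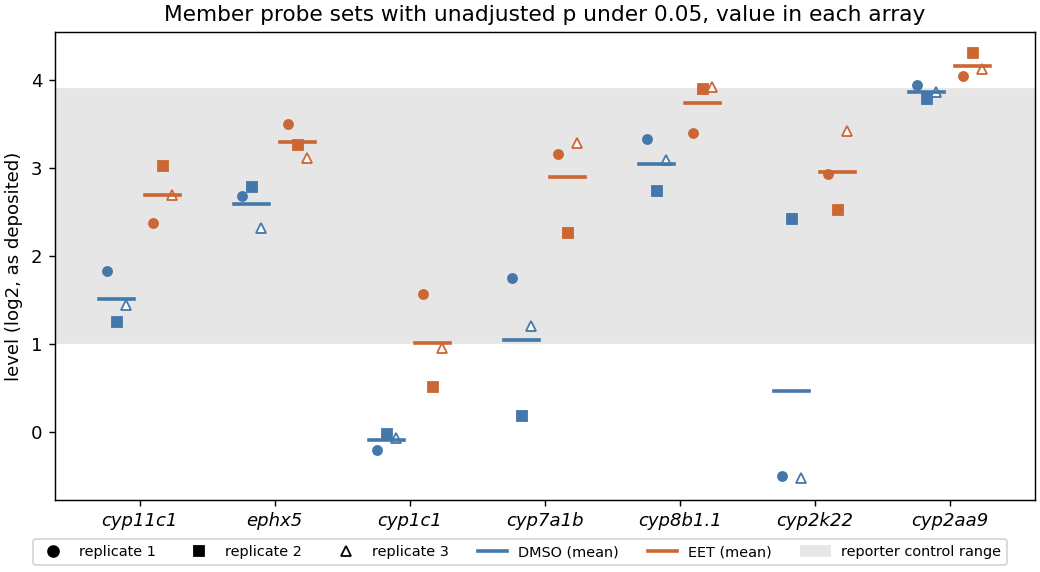
The y axis is the level (log2) in each of 3 DMSO arrays (blue) and 3 EET arrays (orange) for the 7 members with an unadjusted p under 0.05, ordered by p. Symbols mark the replicate number, bars are group means, and the grey band is the range of 1.01 to 3.90 read by the 3 reporter control probe sets. In all 7 the EET arrays lie above the DMSO arrays, and most points lie in or below the band.

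Among the genes of steroid hormone synthesis the smallest p of any member belonged to cyp11c1, the 11β-hydroxylase of cortisol and 11-oxygenated androgens in fish. It read 1.82, 1.25 and 1.44 in DMSO and 2.37, 3.03 and 2.70 in EET. Every EET array lay above every DMSO array, and the difference was 1.19 ± 0.23 (2.29-fold, unadjusted p = 0.003, adjusted p = 0.632). It stayed between 1.03 and 1.36 with any 1 array left out, but on the log2(2^value + 32) scale it was 0.15, and its levels lay in the range of the reporter controls. Of the 8 probe sets of this group 2 had the higher mean in EET and 6 the lower (median difference -0.13). The side chain cleavage gene cyp11a1.1 differed by -0.26 ± 0.49. For cyp17a1, which hydroxylates and cleaves the steroid side chain, the difference was -0.11 ± 0.24 at the brighter and -0.05 ± 0.44 at the dimmer probe set. The gonadal aromatase gene cyp19a1a gave 0.38 ± 0.50. The brain aromatase gene cyp19a1b, a product of radial glia, was lower by group mean in all 3 probe sets, by -0.15 ± 0.25, -0.37 ± 0.84 and -1.84 ± 1.38 from the brightest to the dimmest. Without the replicate 3 arrays these were 0.06, 0.54 and -0.69, and the 3 probe sets share a sequence cluster name. For 2 measured radial glia markers the summed level ranged from 9.32 to 9.51 over the DMSO arrays. Over the EET arrays it ranged from 9.497 to 9.72, and the ranges overlapped. The markers went opposite ways, gfap by -0.029 ± 0.118 and fabp7a by 0.24 ± 0.13.

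The retinoic acid degrading genes had 3 of 6 probe sets above the median level, and these lay close to 0. The brightest probe set of cyp26b1 read 6.92, 6.85 and 6.97 in DMSO and 6.99, 6.96 and 7.05 in EET, overlapping by 1 array. The difference was 0.09 ± 0.09, with a 95% interval from -0.12 to 0.30. The next gave 0.13 ± 0.12. It shares a sequence cluster name with a probe set annotated to mllt11, so which transcript it reads is uncertain. The dimmer ones gave -0.397 ± 0.384 and -0.029 ± 0.312. For cyp26a1 the values were 6.18, 6.20 and 6.24 in DMSO and 5.85, 6.27 and 6.34 in EET. EET replicate 1 lay below the others, and the difference was -0.0497 ± 0.136 with an interval from -0.36 to 0.26. The dimmer cyp26c1 differed by 0.26 ± 0.27.

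Of the 13 member genes with several probe sets, 8 had differences of opposite sign: cyp1c1, cyp26b1, cyp27a1.4, cyp2ad2, cyp2y3, cyp7a1b, cyp8b1.1 and faah2b. Whether all probe sets of a gene read its transcript was not tested. The widest spread was in cyp1c1, from -1.36 to 1.11. For cyp2ad2 the 3 values lay between -0.63 and 0.19, and for cyp2y3 between -0.93 and 0.25. The remaining 5 genes kept 1 sign, cyp17a1, cyp19a1b and cyp3a65 on the lower and cyp24a1 and cyp3c1 on the higher side.

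**Figure D5:**
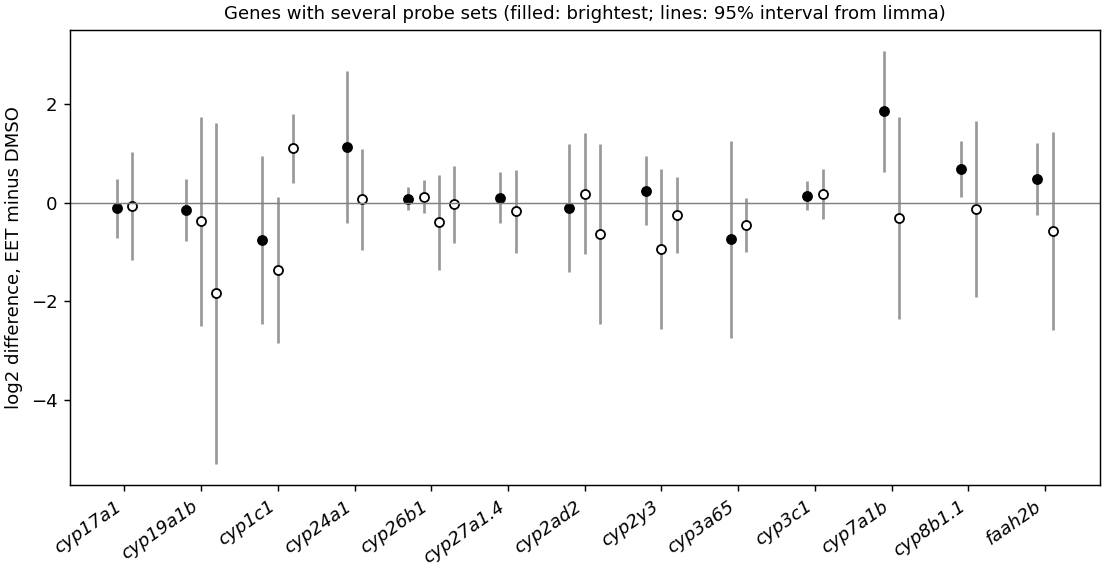
Each point is the log2 difference, EET minus DMSO, of 1 probe set of the 13 member genes that have several, and lines are 95% intervals from limma over all probe sets. Filled points are the brightest probe set of each gene. The intervals of cyp3c1 and the brighter cyp26b1 probe sets are narrow, and 8 genes have points on both sides of 0.

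The other genes of these pathways also held no call. Of 34 further eicosanoid genes listed, 1 (alox5ap) was a member by the rule. Of the rest 11 were measured, 8 with the higher mean in EET and 3 with the lower (median difference 0.07), and limma called 0. The leukotriene receptor gene cysltr1 was lower in every EET array, by -2.73 ± 0.68 (unadjusted p = 0.00861, adjusted p = 0.872), with an EET mean of -1.33, not known to be above background. Of 33 P450 redox partners and sensors of foreign compounds 18 were measured, with the EET mean higher in 8 and lower in 10 (median difference -0.015), and 0 were called. Among these tiparp, a target gene of the aryl hydrocarbon receptor, read 6.71, 6.41 and 6.64 in DMSO and 6.72, 7.07 and 7.02 in EET. The groups were just apart and differed by 0.35 ± 0.15 (adjusted p = 0.930). Among the brighter probe sets limma gave tiparp an unadjusted p of 0.025 and an adjusted p of 0.720. The electron carrier gene cyb5a was lower in every EET array, by -0.245 ± 0.115 (adjusted p = 0.930). In the brighter fit limma gave it an unadjusted p of 0.0486 and an adjusted p of 0.739. The retinoid receptor gene rxrab, a dim probe set, differed by 2.02 ± 0.71. Of 23 retinoic acid genes 14 were measured, with the EET mean higher in 6 and lower in 8 (median difference -0.04), and 0 had an unadjusted p under 0.05. Of 24 steroid hormone genes 17 were measured, with the EET mean higher in 7 and lower in 10 (median difference -0.0101), and 0 were called. In that list the cholesterol transfer gene stard3 was lower in every EET array, by -0.49 ± 0.16. The gene hsd17b12a, of fatty acid elongation and steroid reduction, was higher in every one, by 0.35 ± 0.12. Each had an adjusted p of 0.930 over all probe sets. In the brighter fit limma gave unadjusted p-values of 0.00636 for stard3 and 0.0109 for hsd17b12a, each at an adjusted p of 0.628. The gene left out of the members, cyp51, had 4 probe sets, which differed by 0.52 to 2.11 in the same direction, each also at an adjusted p of 0.930 to 0.934. In all but the probe set with the smallest difference every EET array lay above every DMSO array. For these limma gave unadjusted p-values of 0.028 to 0.036 over all probe sets. All 4 were dim, with group means of 0.98 to 4.255.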

How the data were processed

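Biotin-labelled RNA from pools of whole embryos, prepared from 6 µg of total RNA, was measured, per the labels' protocols, on Affymetrix arrays with 1 colour. The authors deposited 1 table of processed values, 1 per probe set and array, read here as log2 since the highest value, 13.63, would exceed a scanner's range as a natural log. The background correction, probe summary and scaling are not given in the sources used here, and no detection calls were used. The number of arrays limits the precision.

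Of 15617 probe sets 115 controls were left out. Symbols came from the platform annotation and were checked through Entrez identifiers against a RefSeq table (GRCz12tu), where all 65 member genes matched. Coordinates are left out because no build is named for the annotation. Tests of EET against DMSO used limma (version 3.58.1, under R version 4.3.3; lmFit, then eBayes, 2-sided, no covariates) over all 15502 probe sets and again over the 7751 at or above the median level, and the procedure was tested on simulated data. Standard errors and adjusted p-values of members above the median level come from the brighter fit and all others from the full fit, unless stated. The replicate number was also fitted as a block. For arrays sharing a number, deviations from the group means had correlations of 0.18, 0.24 and 0.55 among the brighter probe sets, all over 0.1. DMSO replicate 1 with EET replicate 2 gave 0.296, and DMSO replicate 2 with EET replicate 1 gave 0.267. Pairs of unlike number with a replicate 3 array ran from -0.396 to -0.324. Deviations in a group sum to 0 and replicate 3 was set apart in both groups. These correlations therefore cannot show whether the numbers pair the pools. Over all probe sets the correlations were 0.042, 0.056 and 0.15. The labels do not say what the numbers share. The blocked p-values are given with the count of brighter members that they move, and the blocked SE for ptgdsb.1 only. Intervals are 95% and not adjusted for the number of members. The text names members with an unadjusted p under 0.05, members whose groups do not overlap, the brightest and dimmest of each role list, genes whose probe sets disagree in sign, and a fixed set of genes. A further 10 probe sets were named after their values were seen. The members, lists and tests were chosen with earlier results of these data known. Of the marker lists fixed for 15 tissues or cell types, those of liver and radial glia are given beside results and the rest in the closing section. Alternatives are given there too.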

Additional observations from a re-analysis of the deposited data

How the results depend on the processing

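No member was called under any of 15 alternatives, over all probe sets or among the brighter ones, nor at an adjusted p under 0.10. The alternatives were the replicate block, replicate 3 as a batch term, each array left out, both replicate 3 arrays left out, median centring, quantile normalisation, array weights, a trended robust fit, log2(2^value + 32) and leaving out the dimmest 25%. Over all probe sets 5 to 9 of the 84 members had an unadjusted p under 0.05 (4 of the 43 left without the dimmest 25%). The share of all probe sets at that p ran from 4.354% without DMSO replicate 2 to 6.638% with array weights. In the brighter fits 0 to 5 of the 19 members had such a p. The count was 5 with the replicate block, 5 with replicate 3 as a batch term and 4 with array weights. The share of all brighter probe sets rose too, to 9.096%, 10.01% and 12.32% in that order, against 6.657% in the main fit. The smallest adjusted p of any member in any setting was 0.184, without DMSO replicate 2. The members' median of 0.064 was 0.016 on the log2(2^value + 32) scale, 0.11 with the brightest probe set per gene, 0.027 over the members above the reporter controls (an alternative chosen after seeing the data), and -0.018 to 0.075 with 1 array left out. For the 74 probe sets named, 1000 of 1077 values kept their sign, and 77, in 38 probe sets, changed it. The replicate block, the replicate 3 batch term, the trended robust fit and leaving out the dimmest 25% cannot alter a difference. Their values kept their sign by construction and are among the 1000. With both replicate 3 arrays left out the sign changed for cyp2aa6 -0.0136, cyp2ad2 (brightest) 0.13, cyp2ad2 (second) -0.10, cyp2k18 -0.0506, cyp27a1.4 (brightest) -0.10, cyp27c1 0.0506, cyp8b1.1 (dimmer) 0.0826, cyp17a1 (brightest) 0.12, cyp19a1b (brightest) 0.0604, cyp19a1b (second) 0.54, ephx1 -0.0806, pla2g15 0.0836, pla2g4aa -1.38. With array weights it changed for cyp2ad2 (brightest) 0.20, cyp8b1.1 (dimmer) 0.23, ephx1 -0.0823, pla2g4aa -0.11. On the log2(2^value + 32) scale it changed for cyp2ad2 (brightest) 0.00869, cyp8b1.1 (dimmer) 0.000621, alox5ap -0.0138, pla2g4aa -0.00648. With 1 array left out the difference crossed 0 in these ranges: cyp2aa4 -0.24 to 0.0416, cyp2ad2 (brightest) -0.59 to 0.36, cyp2ad2 (second) -0.20 to 0.47, cyp2ad2 (dimmest) -1.18 to 0.0278, cyp2k6 -0.52 to 1.43, cyp2p10 -0.15 to 0.14, cyp2p6 -0.58 to 0.16, cyp2p8 -0.0155 to 0.36, cyp2r1 -0.0448 to 0.30, cyp2y3 (brightest) -0.00199 to 0.38, cyp2y3 (dimmest) -0.45 to 0.0441, cyp3a65 (brightest) -1.28 to 0.14. It did so for cyp4v2a -0.31 to 0.97, cyp24a1 (dimmer) -0.21 to 0.45, cyp27a1.4 (brightest) -0.0195 to 0.30, cyp27a1.4 (dimmer) -0.43 to 0.16, cyp27c1 -0.19 to 0.0112, cyp7a1b (dimmer) -0.78 to 0.60, cyp8b1.1 (dimmer) -0.78 to 0.35, cyp26a1 -0.14 to 0.10, cyp26b1 (next dimmest) -0.68 to 0.00865, cyp26b1 (dimmest) -0.31 to 0.12, cyp11a1.1 -0.56 to 0.20, cyp17a1 (brightest) -0.34 to 0.11. The same was found for cyp17a1 (dimmer) -0.51 to 0.33, cyp19a1a -0.0815 to 0.85, cyp19a1b (brightest) -0.40 to 0.03, cyp19a1b (second) -1.03 to 0.31, faah2b (dimmer) -1.37 to 0.0826, ephx1 -0.19 to 0.41, alox5ap -0.88 to 1.08, pla2g15 -0.17 to 0.0122, pla2g4aa -0.75 to 1.01, ptgdsb.2 -0.31 to 0.0545, ptges3a -0.0462 to 0.32, ptges3b -0.0541 to 0.12. Without the replicate 3 arrays 28 further probe sets kept their sign but moved by over 1.5 times: cyp1c1 (brightest) -0.20, cyp2aa4 -0.13, cyp2ad2 (dimmest) -0.41, cyp2k6 0.30, cyp2p10 -0.0677, cyp2p6 -0.14, cyp2p8 0.28, cyp2x7 0.11, cyp2y3 (dimmest) -0.48, cyp3c1 (brightest) 0.0698, cyp4v2b -1.62, cyp24a1 (dimmer) 0.49, cyp27a1.4 (dimmer) -0.000218, cyp7a1b (dimmer) -0.90, cyp26a1 -0.12, cyp26b1 (second) 0.25, cyp26b1 (next dimmest) -0.64, cyp26b1 (dimmest) -0.0928, cyp17a1 (dimmer) -0.53, cyp19a1a 0.81, cyp19a1b (dimmest) -0.69, faah2b (dimmer) -1.21, alox5ap 0.76, alox5b.3 1.26, pla2g12b -0.0408, pla2g6 -0.11, ptgdsb.2 -0.0377, ptges3b 0.0687. The causes were not tested.

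Replicate numbers are shared by the groups, but the labels do not say that they pair the pools. Among the brighter probe sets DMSO replicate 1 correlated best with EET replicate 2, at 0.296, and DMSO replicate 2 with EET replicate 1, at 0.267. Each number holds a DMSO and an EET array, so the block cannot alter the differences or their median, only the SE and p. With the replicate block 0 members were called. Over all probe sets 9 members then had an unadjusted p under 0.05, 6 higher and 3 lower, against 5.37% of all probe sets. Only 25 of 84 members exceeded the highest reporter control reading in every array. Whether background limits the values of the others was not tested.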

Other observations

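Marker lists of the other tissues of the embryo gave no call. The medians of the measured genes were -0.017 for gut (3 of 4 measured), -0.036 for kidney (4 of 4), 0.38 for pancreas (4 of 4) and -0.076 for epidermis (4 of 4, all lower by group mean). The blood lists, each with 2 measured genes, gave 0.14 for neutrophils, 0.62 for macrophages, 1.26 for thrombocytes and 0.13 for red blood cells, and the macrophage and thrombocyte genes lay below the median level. Skeletal muscle gave -0.095 (2 of 3), eye -0.195 (3 of 4), heart 0.068, endothelium -0.060 and hatching gland 0.062, the last 3 with 1 gene each. The summed levels of the epidermis genes, mostly krt4 (12.72 in DMSO), were 13.18 to 13.23 in DMSO and 13.04 to 13.16 in EET, without overlap. For each of the 4 genes alone the groups overlapped. Of the other markers, pax2a of the kidney list (-0.18 ± 0.097) and ckma of the skeletal muscle list (-0.19 ± 0.095) were lower in every EET array. This held for 5.91% of all probe sets.

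On the GRCz12tu assembly, 29 member genes lay in 10 groups of neighbours with at most 3 protein-coding genes between them. The 6 cyp2aa genes ran from -0.75 to 0.29, the 5 genes of the cyp2ad2 and cyp2p group from -0.54 to 0.14, and the 4 neighbouring cyp2k genes from -0.030 to 0.69. The lowest cyp2aa value came from a dim probe set, had an SE of 0.93 and was 0.16 without the replicate 3 arrays. The cyclooxygenase gene ptgs2a and the phospholipase gene pla2g4aa are neighbours too, with differences of 0.37 and 0.048.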
